A study of Homo sapiens and Mus musculus with 10 samples.

Results

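Interferon-stimulated genes were followed in leukaemic and myeloid progenitor cells treated with WM-1119, an inhibitor of the histone acetyltransferase KAT6A. A fixed set of 49 gene symbols was picked for known function and not by a threshold on these values, though with earlier results of these data known. It was matched by symbol, ignoring case, to the expression tables of both cell lines. Of the 49, 44 were among the 27800 symbols of the human table and 45 among the 24493 of the mouse table. Of the 49 symbols, 40 were in both tables, 4 in the human table alone (IFIT5, OAS1, OASL and IFI6) and 5 in the mouse table alone (Oas1a, Oas1g, Oasl1, Oasl2 and Ifi47).

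The human cells were MOLM-13, an established line of acute myeloid leukaemia with a rearranged MLL gene, given 4 µM WM-1119 for 4 days (3 libraries) or the solvent DMSO (3 libraries). The mouse cells were ER-Hoxa9, a myeloid progenitor line held immature by HOXA9 under the control of estrogen, given 2 µM WM-1119 for 4 days (2 libraries) or DMSO (2 libraries). All ER-Hoxa9 cultures, WM-1119 and DMSO alike, also received β-estradiol and medium with stem cell factor, so HOXA9 stayed active in every library. Doses differed between the lines, each condition was studied in 1 line per species, and the labels do not say whether replicates were separate cultures. The p-values therefore measure only the spread between libraries, which may be technical.

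Type I interferons bind a cell-surface receptor whose kinases, JAK1 and TYK2, phosphorylate STAT proteins. STAT2 and its partner then join IRF9, and this complex binds a DNA element called the interferon-stimulated response element (ISRE) in the promoters of its target genes. Those targets include sensors of viral RNA, proteins that block viral entry, translation or replication, the ubiquitin-like modifier ISG15 with its enzymes, and the factors IRF7, IRF9 and STAT2 themselves. Many myeloid cells keep a low level of this programme without added interferon.

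The response element was visible in the promoters of many human members. Promoter windows of 300 bases, from 250 before to 50 after each annotated start, came from RefSeq on GRCh38.p14 and were available for 35 of the 44 human members. The searched core was GAAA, any 2 bases and GAAA, which reads TTTC, any 2 bases and TTTC on the other strand, and both strands were searched. It was present in 26 of 49 member windows (53.1%), against 1255 of 35116 windows of all genes (3.57%). Counted by gene, 22 of 35 members held it (62.9%), against 1195 of 27305 genes (4.38%). The members DHX58, IFIT2, IFITM2, IRF7, MX2, OAS2, OASL, UBA7 and USP18 had no window. A second element, GAS (TTCNNNGAA), read by STAT dimers, was in 11 of 49 member windows (22.4%), against 7.66% of all windows. The 2 motifs can overlap, and a match is a description of letters, not of a bound site.

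The 9 stretches printed here carry the comparison that follows, because their genes lay on different sides of zero in MOLM-13. Each runs 5′ to 3′ on the strand of its gene, and capitals mark the ISRE core. The first 6 belong to genes that were lower with WM-1119 in every MOLM-13 replicate pair, the next 2 to genes that were higher in every pair, and ISG15 to neither. They lie, on GRCh38.p14, at chr10:89392495-89392554 (+) for IFIT1, chr10:89332453-89332512 (+) for IFIT3, chr2:6877607-6877666 (+) for RSAD2, chr14:94110616-94110675 (+) for IFI27, chr11:320861-320920 (-) for IFITM3, chr1:78620350-78620409 (+) for IFI44L, chr19:17405720-17405779 (-) for BST2, chr3:122564307-122564366 (-) for PARP9 and chr1:1013365-1013424 (+) for ISG15.
IFIT1: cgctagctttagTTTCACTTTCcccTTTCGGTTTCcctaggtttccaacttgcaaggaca
IFIT3: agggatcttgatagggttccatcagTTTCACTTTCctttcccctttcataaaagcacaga
RSAD2: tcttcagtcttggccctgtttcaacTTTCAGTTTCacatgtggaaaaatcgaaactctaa
IFI27: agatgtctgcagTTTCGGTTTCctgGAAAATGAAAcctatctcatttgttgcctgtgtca
IFITM3: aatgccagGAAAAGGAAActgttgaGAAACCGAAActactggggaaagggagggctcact
IFI44L: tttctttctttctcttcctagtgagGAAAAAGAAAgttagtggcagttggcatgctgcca
BST2: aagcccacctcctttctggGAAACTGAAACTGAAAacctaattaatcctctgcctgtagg
PARP9: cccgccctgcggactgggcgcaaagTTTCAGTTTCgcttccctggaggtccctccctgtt
ISG15: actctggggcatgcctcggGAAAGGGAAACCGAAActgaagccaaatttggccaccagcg

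The core was as plain in BST2, where 2 copies overlapped, as in IFIT1, where 2 copies stood 3 bases apart. Among the human members with a window, 10 of the 11 that were lower in every MOLM-13 pair held a core, against 3 of the 7 that were higher in every pair and 9 of the 17 that were mixed. DTX3L and PARP9, which are transcribed away from each other from overlapping starts, share the match shown for PARP9. GAS elements were in 3 of the 11 members lower in every pair, 2 of the 7 higher in every pair and 5 of the 17 mixed members. These directions came from the same libraries, so the counts describe the members and carry no test. The directions also depended on how libraries were scaled. After median-of-ratios scaling, ADAR, DTX3L and TRIM25, among those 7, were no longer higher in every pair. DTX3L was 1 of the 3 with a core, and the match it shares with PARP9 was counted for both.

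**Figure D1:**
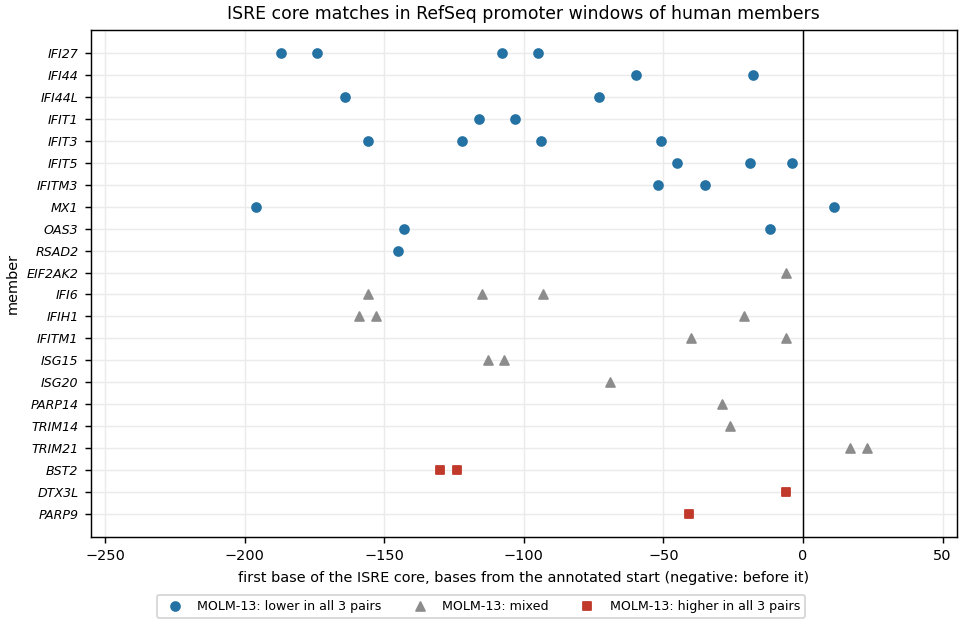
Position of each ISRE core match in the promoter windows of the human members that held one; the horizontal axis is the distance in bases from the annotated start, and each point is 1 match. Colours and shapes give the member's direction in MOLM-13 from the values as deposited. They show 10 members lower in all 3 pairs, 9 mixed and 3 higher in all 3 pairs, with matches of all 3 kinds mostly before the start.

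Values are TPM, shares of a library's transcripts that are scaled to gene length, so levels can be compared between genes. Depth is unknown because TPM keep no count of reads. Each line was fitted separately with limma on log2(TPM + 1) over every gene averaging 1 TPM or more in that line (12436 in MOLM-13 and 11362 in ER-Hoxa9), and 35 members passed that filter in each line. MOLM-13 libraries had 12112 to 12416 genes at 1 TPM or more and ER-Hoxa9 libraries 11042 to 11446. Precursor microRNA entries took 13.2% to 22% of all TPM in MOLM-13 and 7.53% to 11% in ER-Hoxa9. Of the MOLM-13 markers, 7 of 8 averaged 1 TPM or more, with ANPEP below it, and so did 7 of 8 ER-Hoxa9 markers, with Lyz2 listed at 0 in every library. In MOLM-13 the replicate numbers paired the libraries, since same-numbered libraries deviated together, and pairs are compared there. In bulk RNA such as this, fewer cells of a kind and less RNA per cell cannot be told apart.

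In MOLM-13, 15 of the 44 listed interferon-stimulated genes (34.1%) were lower with WM-1119 in every replicate pair, most of them at low levels. The share over all genes above 0 in any library was 11.5%. That background includes genes at 0 in both libraries of a pair, which could not qualify. Among tested members the share lower in every pair was 20%, against 14.4% of tested genes, and 20% against 23.2% after median-of-ratios scaling. Another 9 were higher in every pair, at the share seen over all genes, and 20 were in neither group. The lower ones included all 4 listed IFIT genes, MX1, RSAD2, USP18, IFI27, IFI44 and IFI44L. The higher ones included MX2, BST2 (tetherin) and IFI35. ISG15, IFI6, CMPK2, XAF1 and OAS1 were in neither group. STAT2, IRF1 and IRF7 differed little between conditions. No member passed the adjusted threshold.

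In numbers, limma called 0 of the 35 tested members at an adjusted p under 0.05 in either direction, against a background of 0% of all genes higher and 0.00804% lower, which is 1 gene. At an unadjusted p under 0.05, 1 member was higher (BST2; background 2.08%) and 1 lower (MX1; background 0.965%). With the replicate pair as a block, 5 (14.3%) were higher at that level (BST2, IFI35, MX2, OAS1 and UBA7; background 13.2%) and 4 (11.4%) lower (IFIT2, IFITM3, MX1 and USP18; background 4.91%), and again 0 passed adjustment, the lowest block-adjusted p being 0.112 for BST2. The tested members had 21 positive and 14 negative log2 fold changes, with a median of 0.06, beside 61.5% positive, 38.5% negative and a median of 0.05 over all genes.

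Within pairs, the members at low levels were the uneven ones. Of all 44 listed members, 15 (34.1%) were lower in every pair, against 11.5% of the 22177 genes above 0 in any library, and 9 were higher in every pair (20.5%, background 20.6%). Genes at 0 in both libraries of a pair were among the 22177 and could not qualify for either. Among the 35 tested members, 7 were lower in every pair (20%, background 14.4%) and 9 higher (25.7%, background 28.6%), so 8 of the 15 lower members were under the filter. WM-1119 libraries lay entirely below DMSO libraries for 7 members (IFI27, IFI44, IFI44L, IFIT5, MX1, OAS2 and RSAD2; background 2.57%) and entirely above for 3 (BST2, IFI35 and UBA7; background 4.46%). Of the tested members these were 2 lower (background 2.43%) and 3 higher (background 4.54%). After median-of-ratios scaling, which lowers the median of all genes by 0.06 on the log2 scale, the same 15 of 44 members were lower in every pair (17.3% of genes above 0 were) and 6 were higher (background 14.5%). ADAR, DTX3L and TRIM25 were then no longer higher in every pair. Over tested members alone, 7 of 35 (20%) were then lower in every pair, against 23.2% of tested genes. Only IFI35 then stayed entirely above DMSO (background 3.91%), while BST2 and UBA7 overlapped, and 6 members stayed entirely below (background 3.91%). The DMSO group was itself uneven: for the 15 lower members its highest library was replicate 2 in 8 and replicate 3 in 7, and never replicate 1. The part of that spread in the difference was not tested.

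**Figure D2:**
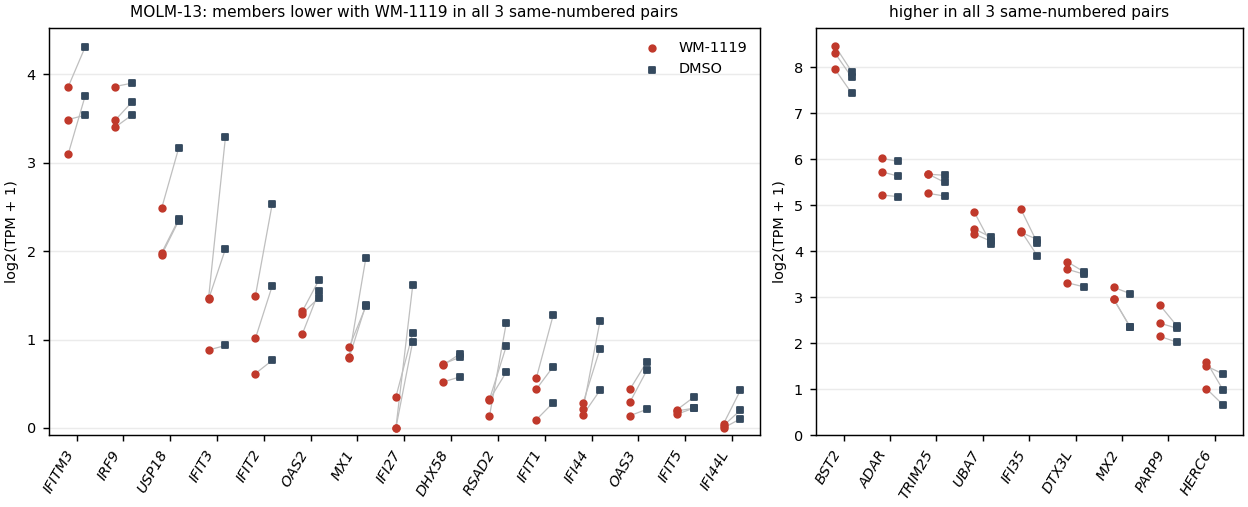
Level of each MOLM-13 member that was lower (left, 15 members) or higher (right, 9 members) with WM-1119 in all 3 pairs; the vertical axis is log2(TPM + 1), circles are WM-1119 libraries, squares are DMSO libraries, and grey lines join libraries with the same replicate number. Most members on the left sit below 2 on this scale, and BST2 on the right is far above every other member shown.

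The factors that drive the programme differed by less than the spread of their libraries. STAT2, the signal transducer particular to type I and III interferon, had 19.9, 19.7 and 19.8 TPM in WM-1119 libraries, against 17.9, 20.8 and 20.3 TPM in DMSO libraries. Its log2 fold change was 0.01 ± 0.16 (SE; limma adjusted p = 1). IRF9, which gives the complex its DNA binding, had 9.55, 10.1 and 13.5 TPM in WM-1119 libraries and 10.6, 11.8 and 13.9 TPM in DMSO libraries. It was lower in each pair, but the groups overlapped. Its log2 fold change was -0.13 ± 0.19 (adjusted p = 1), and -0.13 ± 0.07 with the pair as a block (adjusted p = 0.414).

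IRF1, an activator induced mainly by interferon gamma, had 13.2, 14.0 and 20.0 TPM with WM-1119 and 12.8, 14.1 and 14.1 TPM with DMSO, a log2 fold change of 0.17 ± 0.20 (adjusted p = 1). Only WM-1119 replicate 3 stood above the DMSO range by more than 1 TPM. IRF7, the factor that amplifies interferon production, had 11.4, 11.7 and 13.7 TPM with WM-1119 and 8.62, 14.0 and 12.0 TPM with DMSO, a log2 fold change of 0.10 ± 0.21 (adjusted p = 1). Both groups overlapped for each of these 2 factors.

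Cytoplasmic RNA sensors differed little. IFIH1 (MDA5), a sensor of long double-stranded RNA, averaged 5.07 ± 0.802 TPM with WM-1119 and 5.25 ± 0.631 TPM with DMSO (SD, n = 3 each). DDX58 (RIG-I), which reads short 5′-triphosphate RNA, averaged 2.68 ± 0.903 TPM with WM-1119 and 2.67 ± 0.529 TPM with DMSO. DHX58 (LGP2), their regulator, stayed under the filter at 0.573 ± 0.121 TPM with WM-1119 and 0.670 ± 0.157 TPM with DMSO, and was lower in each pair.

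The IFIT proteins bind foreign RNA and block its translation, and all 4 listed human genes of the family were lower in every pair. IFIT3 had 0.843, 1.78 and 1.75 TPM in WM-1119 libraries, against 0.909, 8.78 and 3.07 TPM in DMSO libraries. IFIT2 had 0.532, 1.82 and 1.02 TPM in WM-1119 libraries, against 0.700, 4.81 and 2.05 TPM in DMSO libraries. In both genes DMSO replicate 1 was as low as the WM-1119 libraries and DMSO replicate 2 was by far the highest, so the groups overlapped.

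The log2 fold change of IFIT3 was -0.81 ± 0.55 (adjusted p = 1), and it was -0.21 without DMSO replicate 2 and -1.39 without DMSO replicate 1. IFIT2 had -0.60 ± 0.46 (adjusted p = 1), which came to -0.15 without DMSO replicate 2 and -1.03 without DMSO replicate 1. With the pair as a block, the SE was 0.36 for IFIT3 (adjusted p = 0.319) and 0.22 for IFIT2 (adjusted p = 0.267). IFIT1, which recognises caps that lack a methyl group, had 0.067, 0.478 and 0.355 TPM with WM-1119 and 0.219, 1.42 and 0.617 TPM with DMSO. IFIT5 was lowest, at 0.143, 0.114 and 0.152 TPM with WM-1119 and 0.168, 0.168 and 0.272 TPM with DMSO. The 4 listed genes lie on chromosome 10 between 89283694 and 89421001 (GRCh38, GENCODE 29), in the order IFIT2, IFIT3, IFIT1, IFIT5.

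IFITM proteins stop viruses from fusing with cell membranes, and the 3 listed human genes lay on both sides of zero. IFITM2 was among the 5 most abundant members, at 46.8, 32.0 and 59.4 TPM with WM-1119 and 41.6, 32.7 and 53.2 TPM with DMSO, a log2 fold change of 0.10 ± 0.28 (adjusted p = 1). IFITM3 had 10.2, 7.55 and 13.5 TPM with WM-1119 and 10.6, 12.4 and 18.8 TPM with DMSO. IFITM3 was thus lower in each pair by 0.38 on average on the log2 scale, with an SE of 0.13 with the pair as a block (adjusted p = 0.251). IFITM1 averaged 15.4 ± 6.74 TPM with WM-1119 and 11 ± 3.63 TPM with DMSO. The 3 genes are related neighbours on chromosome 11, and the annotated spans of IFITM1 and IFITM2 overlap, so how reads were divided among them is uncertain.

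Oligoadenylate synthetases sense double-stranded RNA and activate RNase L, and neighbouring genes of the family lay on opposite sides of zero. OAS1 had 4.97, 5.88 and 7.62 TPM in WM-1119 libraries, against 1.69, 5.95 and 3.81 TPM in DMSO libraries. Its log2 fold change of 0.66 ± 0.35 (adjusted p = 1) was the largest positive value of a tested member, yet the groups overlapped through DMSO replicate 2. Without DMSO replicate 1 the value was 0.29. Over all libraries, with the pair as a block, OAS1 had 0.66 ± 0.24 (adjusted p = 0.265).

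OAS2, which lies downstream on chromosome 12 (112978395 to 113011723), had 1.45, 1.08 and 1.49 TPM with WM-1119 and 1.78, 1.92 and 2.20 TPM with DMSO. Its groups did not overlap. Its log2 fold change was -0.34 ± 0.20 (adjusted p = 1), and -0.34 ± 0.15 with the pair as a block (adjusted p = 0.319). OAS3, between OAS1 and OAS2, had 0.102, 0.354 and 0.224 TPM with WM-1119 and 0.157, 0.680 and 0.569 TPM with DMSO, lower in each pair. OASL, which binds RIG-I and lacks synthetase activity, averaged 1.02 ± 0.332 TPM with WM-1119 and 1.43 ± 0.691 TPM with DMSO.

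The MX pair showed a similar split. MX1, a GTPase that traps the nucleocapsids of influenza and other viruses, had 0.882, 0.744 and 0.731 TPM in WM-1119 libraries, against 1.59, 2.80 and 1.63 TPM in DMSO libraries. Every WM-1119 library was below every DMSO library. The log2 fold change was -0.73 ± 0.24 (limma adjusted p = 1), and with the pair as a block it was -0.73 ± 0.20 (adjusted p = 0.203). MX2, a block to HIV entering the nucleus, lies just upstream of MX1 on chromosome 21. It had 6.76, 8.30 and 6.82 TPM with WM-1119 and 4.09, 7.43 and 4.08 TPM with DMSO, higher in each pair. The log2 fold change of MX2 was 0.46 ± 0.24 (adjusted p = 1), and 0.46 ± 0.13 with the pair as a block (adjusted p = 0.204).

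BST2 tethers budding virus particles to the cell surface and was the most abundant member in MOLM-13. It had 315, 247 and 352 TPM in WM-1119 libraries, against 219, 172 and 239 TPM in DMSO libraries. The lowest WM-1119 library was just above the highest DMSO library. The log2 fold change was 0.53 ± 0.21 (limma adjusted p = 1), and with the pair as a block it was 0.53 ± 0.06 (adjusted p = 0.112).

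RSAD2 (viperin), an enzyme that makes a chain-terminating nucleotide, had 0.249, 0.0989 and 0.252 TPM with WM-1119 and 0.551, 1.28 and 0.901 TPM with DMSO. Its groups were apart, but it stayed under the filter and was not tested. CMPK2, its neighbour in opposite orientation on chromosome 2, supplies the nucleotide and averaged 2.68 ± 0.477 TPM with WM-1119 and 2.75 ± 0.914 TPM with DMSO. Their annotated spans overlap and the strand setting of the counting is not given in the sources used here, so reads there may be shared. ADAR, the RNA editing enzyme, had 64.0, 52.0 and 36.4 TPM with WM-1119 and 60.9, 48.6 and 35.5 TPM with DMSO. It tracked the replicate number far more than the treatment, and its log2 fold change was 0.07 ± 0.28 (adjusted p = 1).

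EIF2AK2 (PKR), the kinase that halts translation on double-stranded RNA, averaged 7.78 ± 1.33 TPM with WM-1119 and 7.61 ± 1.18 TPM with DMSO. ISG20, an exonuclease, was under the filter at 0.814 ± 0.228 TPM with WM-1119 and 0.988 ± 0.468 TPM with DMSO. Neither differed beyond the spread of its libraries.

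ISG15 is joined to other proteins by UBA7 (its E1 enzyme) and by ligases, and removed by USP18. ISG15 had 25.1, 25.6 and 41.3 TPM in WM-1119 libraries, against 29.8, 31.2 and 31.6 TPM in DMSO libraries, so the WM-1119 libraries fell on both sides of a tight DMSO group. Its log2 fold change was -0.05 ± 0.23 (adjusted p = 1). UBA7 had 27.8, 19.8 and 21.4 TPM with WM-1119 and 16.9, 17.6 and 18.7 TPM with DMSO, with no overlap. The log2 fold change of UBA7 was 0.34 ± 0.18 (adjusted p = 1), and 0.34 ± 0.13 with the pair as a block (adjusted p = 0.268). USP18, which also shuts down the type I interferon receptor, went the other way in each pair: 2.95, 4.62 and 2.89 TPM with WM-1119 and 4.13, 7.96 and 4.07 TPM with DMSO. Its log2 fold change was -0.48 ± 0.28 (adjusted p = 1), and with the pair as a block it was -0.48 ± 0.11 (adjusted p = 0.173).

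TRIM25, a ubiquitin ligase that acts on RIG-I, had 50.4, 50.1 and 37.3 TPM with WM-1119 and 44.2, 49.3 and 35.8 TPM with DMSO, a log2 fold change of 0.09 ± 0.21 (adjusted p = 1). HERC6 averaged 1.62 ± 0.539 TPM with WM-1119 and 1.02 ± 0.469 TPM with DMSO. Both were higher in each pair, and their groups overlapped. After median-of-ratios scaling HERC6 stayed higher in each pair, but TRIM25 did not and had a log2 fold change of 0.02.

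PARP9 and DTX3L form a complex that adds ubiquitin and ADP-ribose, and both were higher in each pair. After median-of-ratios scaling this held for PARP9 but not for DTX3L. PARP9 averaged 4.64 ± 1.34 TPM with WM-1119 and 3.76 ± 0.611 TPM with DMSO, and DTX3L 10.9 ± 1.87 TPM with WM-1119 and 9.81 ± 1.27 TPM with DMSO. PARP14, TRIM14 and TRIM21 had log2 fold changes of -0.01, 0.25 and 0.32 and overlapping groups. TRIM21, the receptor for antibody-coated particles in the cytoplasm, was the highest of these at 29 ± 7.14 TPM with WM-1119 and 23 ± 5.17 TPM with DMSO.

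The IFI genes held the widest contrast within one group. IFI27, often used as a marker of interferon exposure, was listed at 0, 0.275 and 0 TPM in WM-1119 libraries, against 0.968, 1.10 and 2.06 TPM in DMSO libraries. IFI44 had 0.109, 0.217 and 0.161 TPM with WM-1119 and 0.344, 0.857 and 1.31 TPM with DMSO. IFI44L, its neighbour on chromosome 1, had 0, 0.0191 and 0.0339 TPM with WM-1119 and 0.0749, 0.150 and 0.343 TPM with DMSO. For all 3 genes every WM-1119 library was below every DMSO library, all of them at levels under the filter.

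IFI35, a well expressed member, stood on the other side. It had 29.3, 20.3 and 20.8 TPM in WM-1119 libraries, against 17.1, 18.1 and 13.9 TPM in DMSO libraries, with no overlap. Its log2 fold change was 0.49 ± 0.21 (limma adjusted p = 1), and with the pair as a block it was 0.49 ± 0.13 (adjusted p = 0.193). XAF1, SP100, SP110 and IFI6 had log2 fold changes between -0.03 and 0.09, and the groups overlapped in each. Of these, SP100, a component of nuclear bodies, averaged 23.9 ± 2.28 TPM with WM-1119 and 23.2 ± 4.81 TPM with DMSO.

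In ER-Hoxa9, nearly the whole set leaned one way. The IFITM genes, the oligoadenylate synthetases, the RNA sensors, Ifit2, Isg15 and Uba7 were all higher with WM-1119 than with DMSO. Oas1a, a synthetase, averaged 13.1 TPM with WM-1119 and 5.47 TPM with DMSO. Most other genes of these cells also leaned upward, and no member passed the adjusted threshold with 2 libraries a group.

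Limma called 0 of the 35 tested members, against 0.0176% of all genes called higher and 0.0176% lower, which is 2 genes each way; the lowest adjusted p of a member was 0.216 (Oas1a). At an unadjusted p under 0.05, 9 members were higher (25.7%; Dhx58, Eif2ak2, Ifit2, Ifitm2, Ifitm3, Isg15, Oas1a, Trim21 and Uba7), against 11.6% of all genes, and 0 were lower (background 1.13%). WM-1119 libraries lay entirely above DMSO libraries for 24 tested members (68.6%), against 40.3% of all genes, and entirely below for 0 (background 7.94%). Positive log2 fold changes were found for 33 tested members (94.3%, background 71.9%) and negative ones for 2 (background 28.1%), and their median was 0.38 against 0.12 over all genes. After median-of-ratios scaling, which lowers the median of all genes by 0.13 on the log2 scale, 28 tested members were positive and 7 negative, the median was 0.28, and 18 had non-overlapping higher groups (51.4%, background 21.2%). Under that scaling the tested members Adar, Bst2, Isg20, Sp110 and Trim14 turned negative, and Ifi27, Irf1, Irf9, Parp9, Sp100 and Trim14 no longer had separate higher groups.

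**Figure D3:**
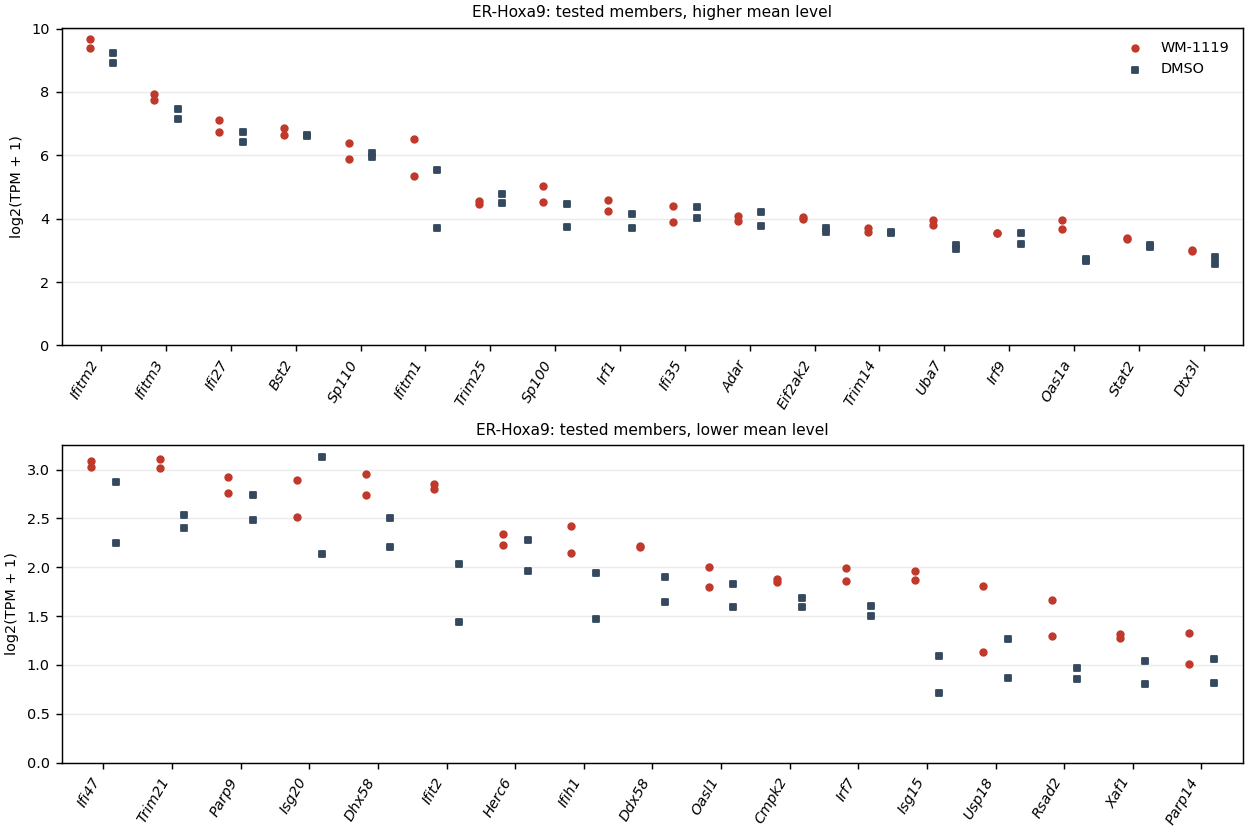
Level of the 35 tested members in ER-Hoxa9, ordered by mean level from left to right and split over 2 panels; the vertical axis is log2(TPM + 1), circles are the 2 WM-1119 libraries and squares the 2 DMSO libraries. Ifitm2 is the highest, and 24 of the members have both circles above both squares.

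The same 4 regulators were higher in mean than DMSO, each by a modest amount. Irf1 had 18.1 and 23.1 TPM in WM-1119 libraries, against 11.9 and 16.6 TPM in DMSO libraries, a log2 fold change of 0.51 ± 0.21 (limma adjusted p = 0.397). Irf7 had 2.64 and 2.98 TPM with WM-1119 and 1.82 and 2.04 TPM with DMSO, a log2 fold change of 0.38 ± 0.19 (adjusted p = 0.455). In both genes the lower WM-1119 library exceeded the higher DMSO library. The value of Irf1 was 0.29 without DMSO replicate 1 and 0.73 without DMSO replicate 2.

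Stat2 had 9.18 and 9.47 TPM with WM-1119 and 7.61 and 7.90 TPM with DMSO, with a log2 fold change of 0.24 ± 0.13 (adjusted p = 0.478). Irf9 had 10.8 and 10.8 TPM with WM-1119 and 10.8 and 8.13 TPM with DMSO, a log2 fold change of 0.19 ± 0.17 (adjusted p = 0.653). For Irf9 the gap between the groups was smaller than the rounding, so only DMSO replicate 2 was low, and without that library the value was 0.00305.

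All 3 RNA sensors were higher without overlap. Ifih1 averaged 3.89 ± 0.653 TPM with WM-1119 and 2.31 ± 0.772 TPM with DMSO (SD, n = 2 each). Ddx58 averaged 3.63 ± 0.0441 TPM with WM-1119 and 2.43 ± 0.430 TPM with DMSO, and Dhx58 6.22 ± 0.776 TPM with WM-1119 and 4.16 ± 0.754 TPM with DMSO. Their log2 fold changes were 0.58, 0.44 and 0.49, with adjusted p between 0.383 and 0.407.

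Ifit2 was the only listed IFIT gene above the filter in mouse cells. It had 5.96 and 6.24 TPM in WM-1119 libraries, against 1.71 and 3.08 TPM in DMSO libraries. The groups were well apart, with a log2 fold change of 1.09 ± 0.24 (adjusted p = 0.305). Ifit1 and Ifit3 stayed near 0: Ifit1 averaged 0.306 TPM with WM-1119 and 0.225 TPM with DMSO, and Ifit3 0.185 TPM with WM-1119 and 0.0712 TPM with DMSO.

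The IFITM genes held most of the interferon-stimulated transcripts of these cells, 930 and 1142 TPM together in WM-1119 libraries, against 641 and 823 TPM in DMSO libraries. Ifitm2 had 675 and 807 TPM with WM-1119 and 487 and 602 TPM with DMSO, a log2 fold change of 0.45 ± 0.16 (adjusted p = 0.375). Ifitm3 had 216 and 244 TPM with WM-1119 and 142 and 176 TPM with DMSO, a log2 fold change of 0.54 ± 0.15 (adjusted p = 0.312). Neither pair of groups overlapped.

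Ifitm1 was the least steady member of the family. It had 39.7 and 90.3 TPM in WM-1119 libraries, against 11.9 and 44.9 TPM in DMSO libraries, so the lower WM-1119 library was below the higher DMSO library. Its log2 fold change was 1.32 ± 0.69 (adjusted p = 0.467). The value was 0.41 without DMSO replicate 1, 2.24 without DMSO replicate 2, and 0.74 without WM-1119 replicate 2.

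Oas1a had 14.4 and 11.8 TPM in WM-1119 libraries, against 5.30 and 5.64 TPM in DMSO libraries. The groups were far apart, and its log2 fold change of 1.12 ± 0.15 had the lowest p-value of any tested member in that line (limma adjusted p = 0.216). Oas2, Oas3 and Oasl2 were under the filter, and all 3 had WM-1119 libraries above DMSO libraries. Oas3, for example, had 1.03 and 1.08 TPM with WM-1119 and 0.408 and 0.469 TPM with DMSO. Oas1g was near 0, and its reads may be shared with the near-identical Oas1a.

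Bst2 had 98.6 and 114 TPM with WM-1119 and 96.8 and 99.4 TPM with DMSO, a log2 fold change of 0.11 ± 0.12 (adjusted p = 0.702), and the groups overlapped. Rsad2 had 2.17 and 1.45 TPM with WM-1119 and 0.955 and 0.814 TPM with DMSO, without overlap and with a log2 fold change of 0.56 ± 0.24 (adjusted p = 0.411). Eif2ak2 averaged 15.3 ± 0.635 TPM with WM-1119 and 11.5 ± 0.691 TPM with DMSO. Thus the kinase and viperin were higher by more than the spread of 2 libraries, and tetherin was not. Mx1 and Mx2 were under the filter, at means of 0.614 and 0.0791 TPM with WM-1119 and 0.768 and 0.0761 TPM with DMSO.

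Isg15 and its E1 enzyme were both higher. Isg15 had 2.89 and 2.64 TPM in WM-1119 libraries, against 0.639 and 1.13 TPM in DMSO libraries, a log2 fold change of 1.01 ± 0.23 (adjusted p = 0.309). Uba7 had 14.5 and 12.9 TPM with WM-1119 and 7.33 and 7.99 TPM with DMSO, a log2 fold change of 0.77 ± 0.14 (adjusted p = 0.295). Usp18 averaged 1.85 ± 0.935 TPM with WM-1119 and 1.11 ± 0.411 TPM with DMSO and overlapped. Trim25 and Ifi35 were the 2 tested members with negative values, at -0.11 ± 0.14 and -0.04 ± 0.23.

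Sp100 had 31.5 and 22.0 TPM with WM-1119 and 12.5 and 20.9 TPM with DMSO, a log2 fold change of 0.67 ± 0.29 (adjusted p = 0.411). Sp110 had 83.6 and 57.9 TPM with WM-1119 and 66.8 and 60.4 TPM with DMSO, overlapping, with a log2 fold change of 0.13 ± 0.20 (adjusted p = 0.798). Ifi27 had 138 and 106 TPM with WM-1119 and 106 and 85.3 TPM with DMSO, a log2 fold change of 0.34 ± 0.18 (adjusted p = 0.475). The groups of Ifi27 met at 106 TPM and those of Sp100 were barely apart. Sp100 had a log2 fold change of 0.32 without DMSO replicate 1 and 1.02 without DMSO replicate 2, and 0.42 without WM-1119 replicate 1. Ifi27 had 0.15 without WM-1119 replicate 1, 0.53 without WM-1119 replicate 2 and 0.19 without DMSO replicate 2. Trim21 averaged 7.37 ± 0.356 TPM with WM-1119 and 4.54 ± 0.380 TPM with DMSO, and Ifi47, a mouse GTPase, 7.32 ± 0.275 TPM with WM-1119 and 5.03 ± 1.81 TPM with DMSO. Ifi44l was listed at 0 in all 4 libraries and Ifi44 in 3 of them.

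Side by side, 28 members were tested in both lines. Of these, 16 had a positive log2 fold change in both, 10 were negative in MOLM-13 and positive in ER-Hoxa9, 2 were positive in MOLM-13 and negative in ER-Hoxa9 (IFI35 and TRIM25), and 0 were negative in both. Over all tested genes, 61.5% were positive in MOLM-13 and 71.9% in ER-Hoxa9, and the shares of genes by both signs were not counted. IFIT2 had -0.60 in MOLM-13 and 1.09 in ER-Hoxa9, and ISG15 had -0.05 in MOLM-13 and 1.01 in ER-Hoxa9. BST2 had 0.53 in MOLM-13 and 0.11 in ER-Hoxa9. UBA7, with 0.34 in MOLM-13 and 0.77 in ER-Hoxa9, had non-overlapping higher groups in both as deposited, and overlapped in MOLM-13 after median-of-ratios scaling. The tables were made separately, the species and doses differ, and the difference between the lines was not tested.

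**Figure D4:**
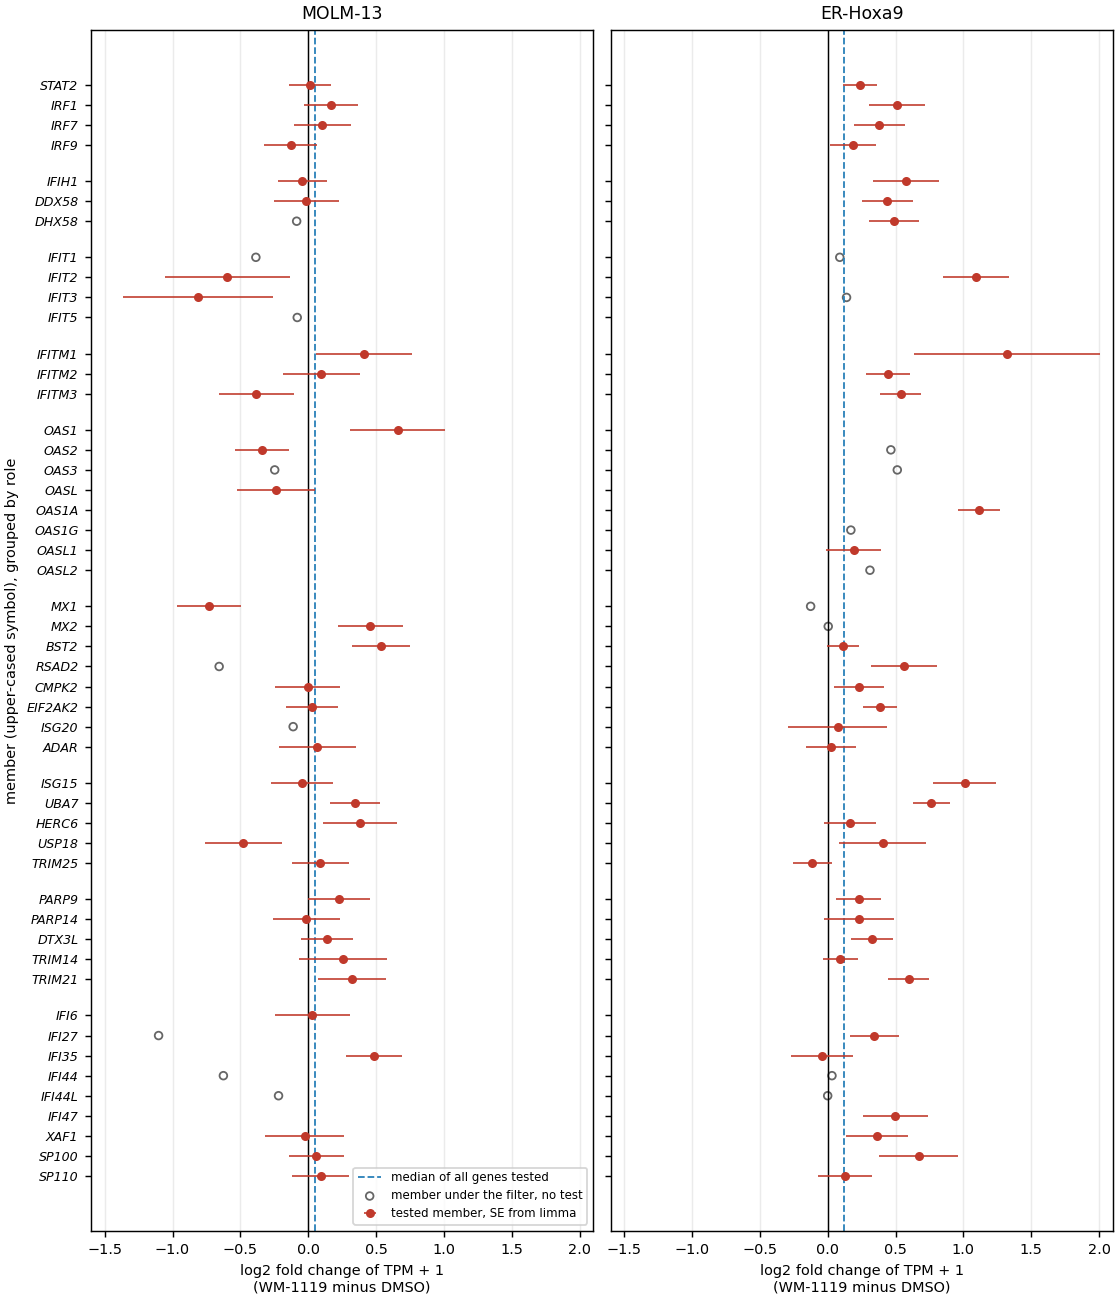
Log2 fold change of TPM + 1, WM-1119 minus DMSO, for every listed member in MOLM-13 (left) and ER-Hoxa9 (right), grouped by role; filled points are tested members with their SE from limma, open points are members under the filter with no test, and the dashed line is the median of all genes tested. Members scatter around that line in MOLM-13 (median 0.06 against 0.05) and lie mostly to its right in ER-Hoxa9 (median 0.38 against 0.12).

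The interferon genes looked up were almost silent, and IFNA1 was the only interferon alpha gene among them. Of the ligands listed, 7 of 8 in MOLM-13 and 6 of 7 in ER-Hoxa9 were at 0 in every library, and the exception was interferon beta. In MOLM-13 it had a mean of 0 TPM with WM-1119 and 0.0507 TPM with DMSO. In ER-Hoxa9 it had 0.175 TPM with WM-1119 and 0.0540 TPM with DMSO, each mean resting on replicate 1, with replicate 2 at 0. Of the other pathway genes (receptors, kinases, factors, sensors with adaptors, and negative regulators), 0 of 32 tested in MOLM-13 and 0 of 30 in ER-Hoxa9 passed the adjusted threshold in either direction, on the backgrounds given above. In MOLM-13, 25 were positive (78.1%, against 61.5% of all genes) and 7 negative, with a median of 0.12 against 0.05. All 6 receptor genes, 3 kinases and 5 factors were positive. Of these, IFNAR1 (0.05), IFNAR2 (0.06) and IRF3 (0.06) were smaller in size than the WM-1119 to DMSO shift of median-of-ratios scaling, -0.07. In ER-Hoxa9, 26 were positive (86.7%, against 71.9% of all genes) and 4 negative, with a median of 0.27 against 0.12. Irf8, a factor of monocyte and dendritic lineages, averaged 6.27 TPM with WM-1119 and 2.29 TPM with DMSO in ER-Hoxa9.

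Markers of other cell types were measured beside the members. In MOLM-13 the summed monocyte list was 2346 to 3555 TPM in WM-1119 libraries, against 812 to 2191 TPM in DMSO libraries, with 7 of 12 listed genes at a mean of 1 TPM or more. LYZ made up most of that sum, at 2090 to 3292 TPM with WM-1119 and 607 to 1969 TPM with DMSO. CYBB, FCGR1A, LYZ and TLR4 were higher without overlap, and CCR2 was lower without overlap, at a mean of 22.9 TPM with WM-1119 and 31.3 TPM with DMSO. In the same cells the neutrophil list was 182 to 227 TPM with WM-1119 and 110.3 to 159.7 TPM with DMSO, with 5 of 10 at that level and LCN2 at 0. The plasmacytoid dendritic list, which itself includes BST2, was 328 to 416 TPM with WM-1119 and 286 to 301 TPM with DMSO, with 4 of 6 at that level. BST2 made up most of that sum. Of those 4 genes, 2 were positive (BST2 and SPIB). The others were negative: IL3RA averaged 60.8 TPM with WM-1119 and 78.9 TPM with DMSO, and TCF4 1.13 and 1.48 TPM. In ER-Hoxa9 the monocyte list was 122 to 133 TPM with WM-1119 and 103 to 134 TPM with DMSO (7 of 11 genes), and the neutrophil list 127 to 306 TPM with WM-1119 and 159 to 234 TPM with DMSO (7 of 12 genes), sums carried by Ccr2 and Lcn2. Of the 7 tested genes on each of these lists, 4 were higher without overlap (background 40.3%) and 0 lower. Among them Adgre1 averaged 9.09 TPM with WM-1119 and 3.31 TPM with DMSO, Cd14 4.60 TPM with WM-1119 and 1.52 TPM with DMSO, and Cd68 7.09 TPM with WM-1119 and 3.897 TPM with DMSO. Itgam averaged 7.68 TPM with WM-1119 and 2.06 TPM with DMSO, Fcnb 4.62 TPM with WM-1119 and 1.09 TPM with DMSO, and Tlr4, Csf3r and Cxcr2 were the others. Not all genes of these 2 ER-Hoxa9 lists rose. On the monocyte list 5 of the 7 tested were positive. Ccr2 averaged 79.9 TPM with WM-1119 and 86.9 TPM with DMSO, and Fcgr1 14.8 and 15.4 TPM. On the neutrophil list 6 of the 7 tested were positive, and Lcn2 had a log2 fold change of -0.16. No marker passed the adjusted threshold, and the part of these markers in the members' values was not tested.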

How the data were processed

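The deposited tables hold TPM, a share of a library's transcripts scaled to gene length, for each gene symbol and library, made by the authors before deposit; the submitters' processing notes name Salmon with the hg38 and mm10 genomes, without a version. RNA was total RNA, and the strand setting is not given in the sources used here. Each library sums to 1000000 TPM, so depth and counting error are unknown. The mouse columns carry another line name (LysHoxa9) and were taken as ER-Hoxa9, the one mouse line in the labels. There were 0 columns without a sample.

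Each line was fitted alone with limma 3.58.1 in R 4.3.3 on log2(TPM + 1), genes averaging at least 1 TPM, moderated variances with a trend, two-sided p adjusted by Benjamini-Hochberg over all genes tested, threshold 0.05. Fold changes are on the log2(TPM + 1) scale, which understates the change of low genes. Members under the filter have values and no test. The fit was tested on simulated data. Pairing was checked in MOLM-13 by the correlation of same-numbered libraries' deviations from their group means (r of 0.522, 0.438 and 0.608, each above the limit of 0.1, which was applied only with at least 3 pairs), so the numbers were taken to pair libraries. This pairing comes from the data, not from the labels. The SE and adjusted p of single MOLM-13 members are of the fit without pairs unless a block is named. With the block the SE was smaller for most tested members.

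Members given in full were STAT2, IRF1, IRF7 and IRF9, the 6 tested members with the largest absolute log2 fold change and the 5 with the highest mean TPM in each line; others were named with levels, and some were singled out after their values were seen. The members and lists were chosen with earlier results of these data known. Alternatives changed the pseudocount, the filter, the scaling, microRNA symbols, the variance trend, the replicate block and single libraries. Human gene positions come from GENCODE 29 on GRCh38 and promoter windows from RefSeq on GRCh38.p14. No mouse sequence was used here. Python 3.11.15 with matplotlib 3.10.9 made the figures.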

Additional observations from a re-analysis of the deposited data

Results flagged for a closer look

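A total of 3 members had every WM-1119 library on one side of the DMSO libraries in MOLM-13 and on the other side in ER-Hoxa9. All were lower in MOLM-13 and higher in ER-Hoxa9. Of genes above 0 in any library, 2.57% lay entirely below DMSO in MOLM-13 (members 15.9%). In ER-Hoxa9, 34.1% lay entirely above (members 61.4%). The share of all genes that did both was not counted, so the 3 have no background. IFI27 had log2 fold changes of 0.34 in ER-Hoxa9 and -1.10 in MOLM-13, which are 1.447 apart (ER-Hoxa9 minus MOLM-13). OAS2 was 0.8086 apart, with 0.47 in ER-Hoxa9 and -0.34 in MOLM-13. RSAD2 was 1.221 apart, with 0.56 in ER-Hoxa9 and -0.66 in MOLM-13. The difference between the lines was not tested, since they are different species at different doses in tables made separately, with 2 libraries a group in ER-Hoxa9 and 3 in MOLM-13. In ER-Hoxa9 the groups of Ifi27 were apart by less than 1 TPM (106 TPM in both after rounding) and overlapped after median-of-ratios scaling, so that only OAS2 and RSAD2 kept opposite sides under that scaling. In MOLM-13, IFI27 was listed at 0 in 2 WM-1119 libraries, and RSAD2 and OAS2 were at or below 2.20 TPM in every library. OAS2 in ER-Hoxa9, and IFI27 and RSAD2 in MOLM-13, were under the filter and were not tested.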

How the results depend on the processing

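Members called at the adjusted threshold numbered 0 in both lines under every alternative run, and the count over all genes was small throughout. In MOLM-13, genes called lower were 0 with no filter on low values, 2 without the variance trend, 0 with the replicate block and 0 when the block was joined to median-of-ratios scaling; leaving out 1 library gave 0 to 5 lower and 0 to 1 higher. In ER-Hoxa9, genes called higher and lower were 0 and 0 with a pseudocount of 0.1, with no filter, with a mean of at least 5 TPM, with the block, alone or joined to median-of-ratios scaling, 1 higher with median-of-ratios scaling, 1 and 1 without microRNA symbols, 7 and 9 without the trend, and 0 and 0 when 1 library was left out. The median log2 fold change of ER-Hoxa9 members was 0.446, 0.335 and 0.344 with the pseudocount of 0.1, no filter and at least 5 TPM, 0.277 with median-of-ratios scaling, blocked or not, and 0.32 to 0.431 when 1 library was left out. In MOLM-13 the median was -0.00877 with no filter, -0.00672 with median-of-ratios scaling and -0.0303 to 0.135 when 1 library was left out. Of 411 values of named members under alternatives, 387 kept their direction and 24 changed sign, all for members with log2 fold changes between -0.05 and 0.17. Median-of-ratios scaling, blocked or not, gave -0.0564 for STAT2, -0.00247 for ADAR, -0.0314 for Bst2 and -0.0162 for Sp110, and leaving out microRNA symbols gave -0.00192 for STAT2. Leaving out 1 library or pair gave ranges of -0.00701 to 0.277 for IRF1, -0.0754 to 0.275 for IRF7, -0.0557 to 0.0551 for STAT2, -0.135 to 0.284 for ADAR, -0.0361 to 0.228 for TRIM25, -0.106 to 0.33 for IFITM2, -0.275 to 0.0719 for ISG15 and -0.133 to 0.39 for Sp110. The cause was not tested. In ER-Hoxa9 the correlation of deviations of same-numbered libraries was 0.206, but with 2 pairs, under the 3 asked for, the numbers were not taken as pairing; the replicate block changed no member's adjusted call in either line. TPM give no read depth, so low members such as IFI27 and IFI44L cannot be given a counting error.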

Other observations

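Genes around the interferon pathway that were outside the fixed member set lay on both sides of zero, and none passed limma's adjusted threshold. In ER-Hoxa9, WM-1119 libraries lay entirely above DMSO libraries for 21 of the 30 tested (70%, background 40.3%). They lay entirely below for 2 (background 7.94%): Irf3 averaged 29.9 TPM with WM-1119 and 36.0 TPM with DMSO, and Trim24 5.83 and 6.69 TPM. In ER-Hoxa9, Irf5, a factor of myeloid cytokine genes, averaged 15.7 TPM with WM-1119 and 9.76 TPM with DMSO. Tmem173 (STING), the adaptor of DNA sensing, averaged 27.8 TPM with WM-1119 and 18.3 TPM with DMSO, and Ifngr2, a chain of the interferon gamma receptor, 18.3 TPM with WM-1119 and 11.4 TPM with DMSO. In MOLM-13, IRF5 averaged 33.1 TPM with WM-1119 and 22.5 TPM with DMSO. It was higher in each pair, but its groups overlapped, at 25.8 to 42.1 TPM with WM-1119 and 15.8 to 31.3 TPM with DMSO. At an unadjusted p under 0.05, 10 of the 30 pathway genes tested in ER-Hoxa9 were higher (background 11.6%) and 0 lower (background 1.13%). In MOLM-13, 0 of 32 were in either direction (backgrounds 2.08% and 0.965%), and with the replicate pair as a block 7 were higher (21.9%, background 13.2%) and 1 lower (background 4.91%).

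Lymphocyte markers summed to 4.08 to 8.89 TPM with WM-1119 and 5.07 to 18.8 TPM with DMSO in MOLM-13, with MS4A1 at 0. In ER-Hoxa9 they summed to 13.5 to 17.9 TPM with WM-1119 and 8.79 to 10.6 TPM with DMSO, with Cd3e and Ms4a1 at 0. The members of that list went opposite ways there: Cd79a averaged 9.92 TPM with WM-1119 and 2.47 TPM with DMSO, and Cd3d 5.42 TPM with WM-1119 and 7.06 TPM with DMSO, each without overlap. Stromal markers were below 1 TPM together in MOLM-13. In ER-Hoxa9 their sum was nearly all Thy1, a surface protein not particular to stroma, at 20.7 and 18.7 TPM with WM-1119 and 4.78 and 8.78 TPM with DMSO, while Col1a1, Col1a2 and Dcn were each below 1 TPM in every library. The plasmacytoid dendritic list in ER-Hoxa9 summed to 127 to 136 TPM with WM-1119 and 114 to 119 TPM with DMSO, Bst2 included.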
